A study of Mus musculus with 2 samples.

Results

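The mouse nuclear receptor superfamily was followed across 3 clones of embryonic stem (ES) cells. It is represented here by 47 genes, found as every non-control probe that carries the name of one of these genes in the scanner files. They had 68 probes in 104 spots per array, among 39429 probes in 43020 spots and 31896 gene names in all. The cells come from ZHBTc4, an ES cell line whose own Oct4 alleles are disrupted and in which Oct4 is supplied by a transgene that doxycycline shuts off. Each clone is a monoclonal line with a stably integrated pCAG-IP construct: EGFP alone in clone 2-5, Oct4-EGFP in clone 9 and Nr5a2-EGFP in clone 26. All 3 clones grew on gelatin without feeder cells, in 15% serum with 1000 IU/ml leukemia inhibitory factor, and all 3 received doxycycline before total RNA was taken. The dose and length of the treatment are not given in the sources used here.

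On the EGFP array RNA of EGFP cells was labelled with Cy3 and that of Nr5a2-EGFP cells with Cy5. On the Oct4 array Oct4-EGFP cells took Cy3 and the same Nr5a2-EGFP clone Cy5. There was 1 array per pair of clones and no dye swap, so no difference below has an error between cultures or a test, and a construct cannot be told apart from the clone that carries it or, in the direct comparisons, from the dye. Receptors are described by size: a log2 ratio of at least 1 is written as at least 2-fold higher, and one of at most -1 as at least 2-fold lower. A level is the log2 intensity of a channel after correction within and between the arrays, and it compares clones for the same probe only. In RNA from whole cultures, fewer cells of a type and less RNA per cell cannot be told apart.

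Nuclear receptors are transcription factors with a zinc-finger DNA-binding domain and, in most members, a pocket for a lipid-soluble ligand such as a steroid, a retinoid, a thyroid hormone or a fatty acid. Many bind DNA as dimers on direct or inverted repeats of a short hexamer, often with a retinoid X receptor as partner, and exchange corepressors for coactivators when ligand binds. Members without a known natural ligand are called orphan receptors. In ES cells several orphan members, among them Esrrb, Nr5a2 and Nr0b1, belong to the transcription factor network around Oct4, and Nr5a2 binds the Pou5f1 promoter.

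Most of the family was detected in every clone. The scanner software flagged at least 1 probe as well above background for 39 of 47 receptors in EGFP cells (79.5% of all genes), 41 in Oct4-EGFP cells (80.3%), and 41 and 42 in the readings of Nr5a2-EGFP cells on the EGFP and Oct4 arrays (79.3% and 78.6%). The share of receptors was thus a little above that of all genes by this rule, but not by a stricter one in both Cy3 clones. With all probes of a gene above background, 33 receptors passed in EGFP cells (70.2%, beside 75.2% of all genes), 35 in Oct4-EGFP cells (74.5% beside 76.05%), and 36 and 37 in the readings of Nr5a2-EGFP cells (76.6% beside 74.6%, and 78.7% beside 73.7%). Nr2e1 and Nr2e3, orphan receptors of the brain and retina, the estrogen receptor gene Esr1, the progesterone receptor gene Pgr and the orphan receptor gene Nr4a3 were not well above background in any reading. Another 3, Nr0b1, Nr6a1 and Nr1h4, were not well above background in EGFP cells. Of these, Nr0b1 and Nr6a1 were above background in Oct4-EGFP cells, and Nr0b1 was below it in Nr5a2-EGFP cells on the EGFP array too. Nr1h4, which encodes the bile acid receptor FXR, was above background only in the readings of Nr5a2-EGFP cells, at levels of 7.46 and 7.36 against 6.62 in EGFP cells and 6.64 in Oct4-EGFP cells, so that it was at least 1.80-fold and 1.64-fold higher there. Its log2 ratio, 0.85 over EGFP and 0.72 over Oct4-EGFP here, was 2.34 and 1.67 as the software computed it.

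Against EGFP cells, 41 receptors were measured in at least 1 channel and 5 of them were at least 2-fold apart. Rarb and Vdr were higher in Nr5a2-EGFP cells, where 3.34% of all measured genes were, and Esrrb, Hnf4a and Nr3c1 were lower, where 5.07% were. The median log2 ratio of the receptors was 0.10, beside 0.03 over all genes. Against Oct4-EGFP cells, 42 receptors were measured. Rarb, Vdr and Pparg were higher in Nr5a2-EGFP cells (4.54% of all genes), and 7 were lower (7.11% of all genes): Esrrb, Nr0b1, Rxra, Nr3c1, Nr5a2, Rarg and Hnf4a. Here the receptor median was -0.06 beside 0.01 for all genes, and 0.04 when arrays were centred on their median in place of loess. Of 41 receptors measured on both arrays, 32 were within 2-fold in both comparisons. The comparisons share the Nr5a2-EGFP sample, so their values are set side by side and not counted as repeats of each other.

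EGFP and Oct4-EGFP cells were not on the same array, so they were compared indirectly, as the difference between the log2 ratios of the arrays. Of 41 receptors, 5 had at least 2-fold more signal in Oct4-EGFP cells, as did 6.48% of all genes: Nr0b1, Esrrb, Ppard, Nr1i2 and Rxra. None had at least 2-fold less, beside 5.85% of all genes, although 1 was lower from the Cy3 levels and 3 were with the software's own ratios. Over all genes the count lower was 1542 here, 2053 from the Cy3 levels and 2467 with the software's ratios. The receptor median was 0.22 and that of all genes 0.02. The receptors within 2-fold lay between -0.97 (Vdr) and 0.98 (Nr5a1).

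Cell type markers differed between the clones beside the receptors. All 8 ES cell markers, Sox2, Nanog and Zfp42 included, were well above background in every reading. Nanog and Fgf4 were saturated in at least 1 reading and made up most of the summed linear level of the list, so that the sum over all 8 has no order between the clones. The other 6 summed to 21032 in EGFP cells, 50800 in Oct4-EGFP cells, and 24637 and 22482 in Nr5a2-EGFP cells on the EGFP and Oct4 arrays. Such a sum adds probes of different brightness and mostly follows the brightest. The 8 trophoblast markers, of which Elf5 was not well above background in any reading, summed to 60877, 16442, 66641 and 66493 in the same order. Of the 8 ES cell markers, 4 were lower by at least 2-fold over Oct4-EGFP and 0 were higher, with Nanog saturated in both channels, and of 7 measured trophoblast markers 6 were higher and 0 lower. Zfp42, among the 4 lower, had -2.13, but -0.99 with the Nr5a2-EGFP level taken from the other array. Tdgf1 was within 2-fold by its brightest probe (-0.30), while its other probes gave -1.83 and -1.97. Over EGFP, 1 ES cell marker was lower and 1 trophoblast marker was higher and 1 lower. That ES cell marker, Fgf4, had -2.20, but 0.73 with the Nr5a2-EGFP level taken from the other array. The trophoblast marker counted higher, Gata3, lay on the limit at 1.00, and had 0.90 with that other reading. The marker counted lower, Hand1, had -1.27, and -1.41 with it. No ES cell marker was higher over EGFP by its brightest probe, but that of Nanog was saturated in Nr5a2-EGFP cells, where a higher level could not show. Its other probe, saturated there too, gave 1.70 over EGFP. The trophoblast sum was thus lowest in Oct4-EGFP cells and the sum of the 6 ES cell markers highest there, and the part of either in the receptor values was not tested. Primitive endoderm markers summed to 3491, 2388, 3596 and 3566. Sox7 is not in these sums, because its probe was flagged as an outlier on both arrays and has no value. Fibroblast markers summed to 7811, 10500, 6379 and 6847, with Lum not well above background in any reading. The brightest of them, Thy1, had levels of 12.40 in EGFP cells and 13.05 in Oct4-EGFP cells. Indirectly, Thy1 and Twist2 were higher in Oct4-EGFP cells (0.51 and 0.12), and Col1a1, Col1a2 and Col3a1 were lower (-0.11, -0.38 and -0.18).

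**Figure D1:**
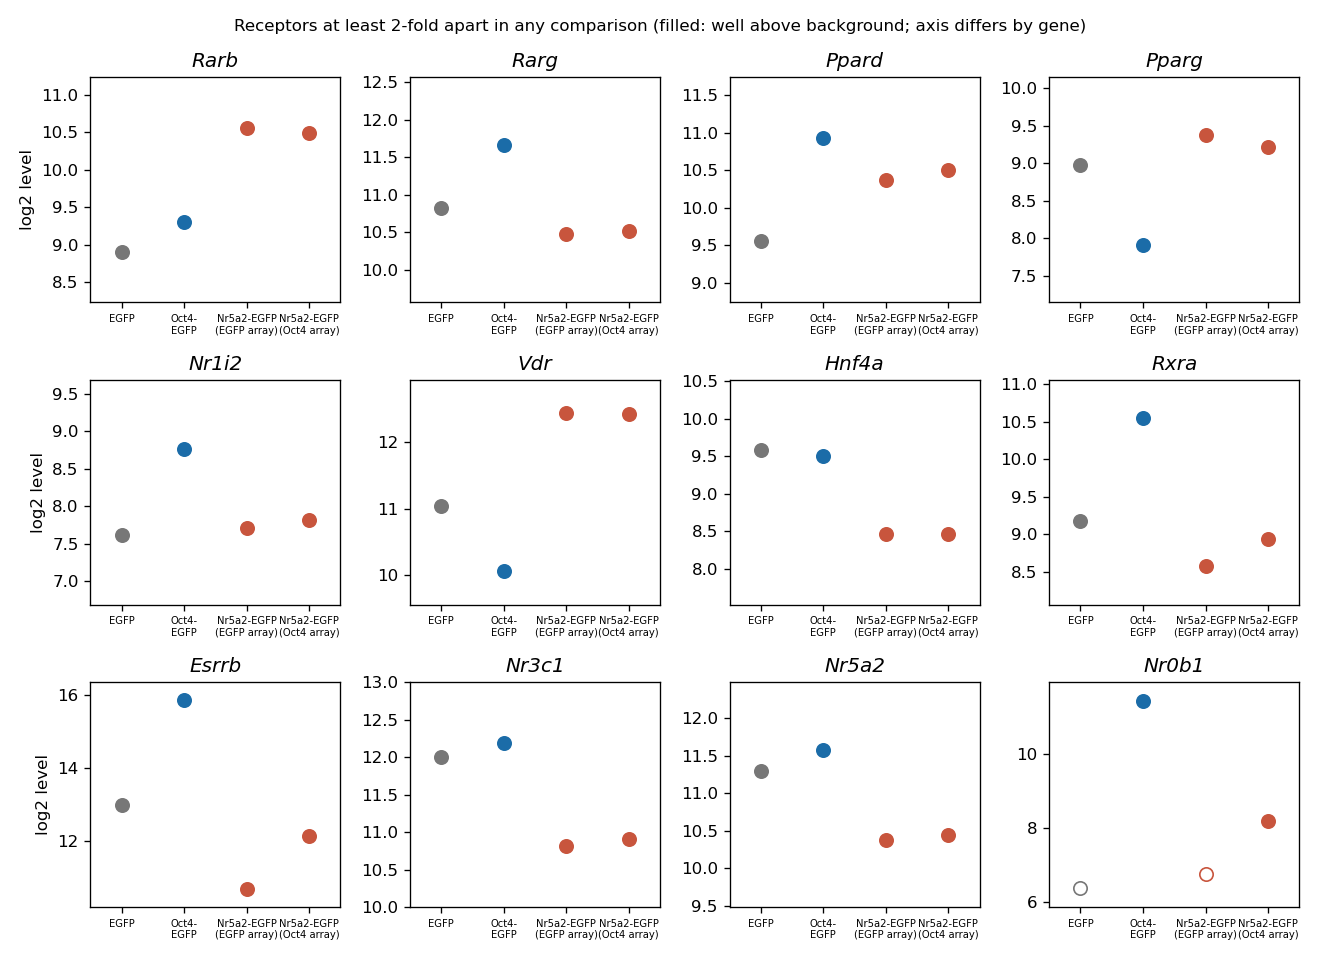
Log2 levels of the 12 receptors at least 2-fold apart in any comparison, by clone, with the brightest probe of each gene. Nr5a2-EGFP cells are shown once per array, filled points are well above background, and the vertical axis differs between genes. Esrrb and Nr0b1 have their highest level in Oct4-EGFP cells, while Rarb and Vdr have theirs in both readings of Nr5a2-EGFP cells.

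The upstream windows of 4 of the receptors that stood apart are shown because they hold a match to a binding sequence of the family itself. They are the 250 bases before the transcription start in the RefSeq promoter table of GRCm38.p6, where 43 of the 47 receptors had 64 windows. Capitals mark the matched letters. The Nr0b1 window is chrX:86191525-86191774 (plus strand), that of Rarb chr14:16575477-16575726 (minus strand), that of Rxra chr2:27709042-27709291 (plus strand) and that of Nr5a2 chr1:136960449-136960698 (minus strand).
Nr0b1: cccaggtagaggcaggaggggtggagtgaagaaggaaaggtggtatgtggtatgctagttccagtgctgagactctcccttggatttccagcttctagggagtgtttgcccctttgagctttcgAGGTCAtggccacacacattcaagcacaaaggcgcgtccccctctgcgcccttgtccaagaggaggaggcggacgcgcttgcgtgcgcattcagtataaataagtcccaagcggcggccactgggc
Rarb: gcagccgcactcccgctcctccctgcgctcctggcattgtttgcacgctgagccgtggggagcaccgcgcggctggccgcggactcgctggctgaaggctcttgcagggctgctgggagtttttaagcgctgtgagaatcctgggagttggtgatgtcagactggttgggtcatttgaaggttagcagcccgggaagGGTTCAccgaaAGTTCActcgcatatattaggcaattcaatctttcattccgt
Rxra: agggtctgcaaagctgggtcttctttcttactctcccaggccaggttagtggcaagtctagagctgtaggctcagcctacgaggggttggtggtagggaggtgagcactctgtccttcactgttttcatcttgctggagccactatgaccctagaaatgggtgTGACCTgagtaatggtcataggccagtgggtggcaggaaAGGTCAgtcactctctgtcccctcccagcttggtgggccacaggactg
Nr5a2: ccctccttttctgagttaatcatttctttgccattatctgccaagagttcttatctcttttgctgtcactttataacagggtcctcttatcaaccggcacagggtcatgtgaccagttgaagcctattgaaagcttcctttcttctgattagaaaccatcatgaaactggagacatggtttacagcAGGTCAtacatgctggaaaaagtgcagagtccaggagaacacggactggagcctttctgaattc

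In these windows the hexamer AGGTCA, the core bound by many nuclear receptors, begins 126 bases before the start site in Nr0b1 and 64 before it in Nr5a2, and in Rxra it occurs 87 bases before it on the opposite strand and 48 before it on the gene's strand. It is a common string: on either strand, 14.0% of 32851 windows hold it, beside 11 of the 64 receptor windows, or 10 of 43 receptors. The direct repeat of GGTTCA and AGTTCA with a spacer of 5 letters, 53 bases before the start in Rarb, was found in 2 windows of the whole table. Rarb is the textbook case of a gene with a retinoic acid response element of this form. In all, 12 strings were searched on both strands, and the windows and strings shown were chosen after the matches were seen. Beside those 2, they were AAGGTCA, TCAAGGTCA and CAAAGGTCA, which contain the hexamer, repeats of AGGTCA with a spacer of 1 or 5 letters, a repeat of AGTTCA with a spacer of 5 letters, the octamer ATGCAAAT, ATTTGCAT and ACAATG with 1 letter between them, CATTGT and ATGCAAA with 1 letter between them, and TATAAA. Of 10 receptors apart in a direct comparison, 9 had at least 1 window. The hexamer was in 1 of 2 windows of Rxra and 1 of 2 of Nr5a2, those shown, and also in 2 of 3 windows of Pparg and 1 of 2 of Rarg. A match describes the letters and does not show binding.

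Esrrb had the lowest ratio of the family in both direct comparisons. It encodes the orphan receptor ERR-beta, which supports self-renewal of ES cells, and its probe lies at mm9 chromosome 12, 87862509 to 87862568. Its level was 12.98 in EGFP cells, 15.85 in Oct4-EGFP cells, and 10.68 and 12.13 in Nr5a2-EGFP cells on the EGFP and Oct4 arrays. The clones thus lay in the order Oct4-EGFP, EGFP, Nr5a2-EGFP, with both readings of the last below the other clones. Here too the Cy5 readings lay on 1 side of the Cy3 clones, and the dye cannot be told apart from the clone. The log2 ratio was -2.30 over EGFP (4.93-fold lower) and -3.72 over Oct4-EGFP (13.2-fold lower). The Cy5 readings were 1.45 apart on the log2 scale. With the Nr5a2-EGFP level taken from the other array, the ratios were -0.85 and -5.17, so the comparison with EGFP then fell short of 2-fold. Indirectly, Oct4-EGFP cells stood 1.42 above EGFP cells, or 2.87 when only Cy3 levels were used.

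The other members of the estrogen-related group were within 2-fold in both direct comparisons. Esrra, which drives genes of mitochondrial metabolism, had a log2 ratio of -0.31 against EGFP and -0.49 against Oct4-EGFP. The brighter probe of Esrrg had 0.02 and 0.55, the latter 1.16 with the software's ratio, and its other probe was well above background in EGFP cells only.

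Nr0b1 encodes Dax1, a receptor without the usual DNA-binding domain that acts mainly as a repressor and binds Nr5a family members. Its probe, at mm9 chromosome X, 83441169 to 83441228, was printed 10 times per array. The mean level was 6.37 in EGFP cells and 6.76 in Nr5a2-EGFP cells on the EGFP array, neither well above background in any spot. On the Oct4 array it was 11.43 in Oct4-EGFP cells and 8.18 in Nr5a2-EGFP cells, above background in 10 of 10 spots of both channels. Oct4-EGFP cells stood above all other readings. The log2 ratio over Oct4-EGFP was -3.25 (9.54-fold lower), with single spots from -3.36 to -3.19 and an SD of 0.061 among spots, which covers error on the slide only. The Cy5 reading of the EGFP array, below background, gives no exact ratio in its place. Indirectly, Oct4-EGFP cells stood 3.65 above EGFP cells (12.5-fold) as the difference between the array ratios, of which that of the EGFP array rests on readings below background in both channels. By the Cy3 levels alone, they had at least 28.7-fold more Nr0b1 signal. Its relative Nr0b2, or SHP, which also lacks the DNA-binding domain, had -0.45 over EGFP and -0.52 over Oct4-EGFP.

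**Figure D2:**
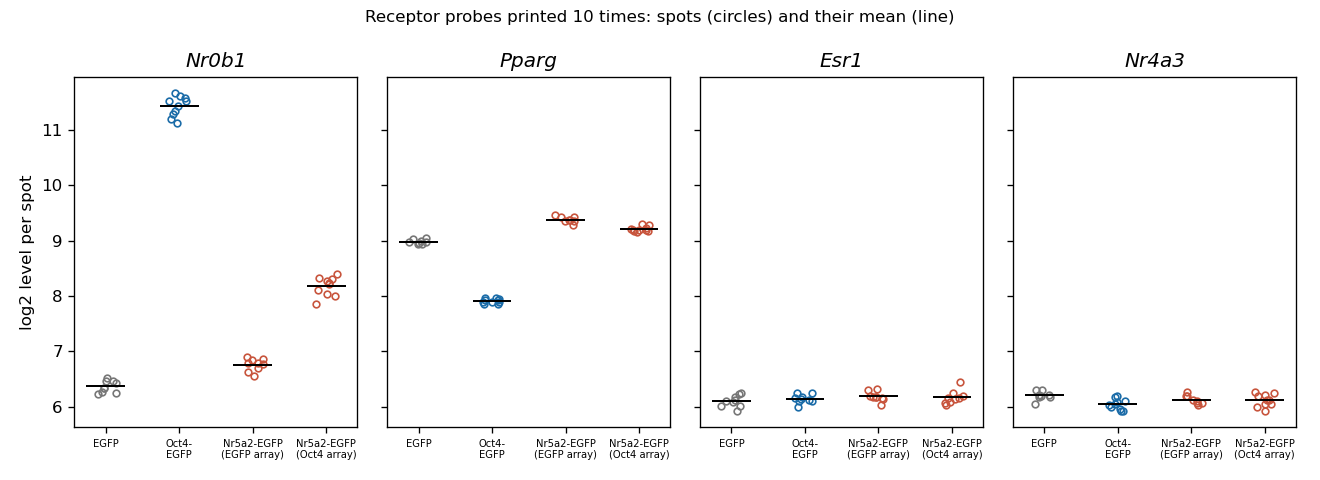
Log2 level of each spot for the 4 receptor probes printed 10 times, by clone and array, with the mean as a line and outlier-flagged spots left out. The Nr0b1 spots of Oct4-EGFP cells lie between 11.13 and 11.67 and those of Nr5a2-EGFP cells on the same array between 7.86 and 8.41, while all spots of Esr1 and Nr4a3 lie near the floor.

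Nr5a2, the receptor that the third construct carries, read lower in Nr5a2-EGFP cells. Its brighter probe had levels of 11.30 in EGFP cells, 11.58 in Oct4-EGFP cells, and 10.38 and 10.44 in the readings of Nr5a2-EGFP cells. This gave log2 ratios of -0.92 against EGFP and -1.14 against Oct4-EGFP, and the other probe gave -0.39 and -0.63. Both probes went the same way, and only the brighter passed 2-fold, over Oct4-EGFP, where the mean of both was -0.88. Whether either probe lies in the part of the transcript that the construct carries was not analysed here, so these values do not check the label of the clone. Nr5a1, or SF-1, the closest relative and a regulator of steroid-producing tissues, had levels of 10.31, 11.69, 10.54 and 10.94 in the same order. Its ratios were 0.23 over EGFP and -0.75 over Oct4-EGFP (-1.15 with the other array's Cy5 reading), and 0.98 in the indirect comparison, or 1.38 from the Cy3 levels. Oct4-EGFP cells thus had the highest level for both Nr5a genes. For Nr5a2 they stood only 0.22 above EGFP cells indirectly, or 0.28 from the Cy3 levels. The SD between the readings of Nr5a2-EGFP cells was 0.26 over the receptors. By both Nr5a2 probes the Cy3 clones lay above both Cy5 readings, and with no dye swap the dye cannot be told apart from the clone. Nr6a1, or GCNF, which represses Pou5f1 in differentiating ES cells, was dim, with levels of 6.68, 7.08, 7.08 and 6.94 and a ratio of -0.15 over Oct4-EGFP. Over EGFP it had 0.40, or 1.01 with the software's ratio.

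The retinoic acid receptors went different ways. Rarb, whose transcription is itself induced by retinoic acid, had levels of 8.91 in EGFP cells, 9.30 in Oct4-EGFP cells, and 10.56 and 10.49 in Nr5a2-EGFP cells, so that both readings of the last stood above the other clones. Both Cy5 readings thus lay above the Cy3 clones, and with no dye swap the dye cannot be told apart from the clone. The log2 ratios were 1.65 over EGFP (3.15-fold) and 1.18 over Oct4-EGFP (2.27-fold). They come from the brighter probe, at mm9 chromosome 14, 17264648 to 17264707. The dimmer probe, at 17263367 to 17263426, gave only 0.12 and 0.25, and the mean over the probes was 0.89 and 0.72, both under 2-fold. Rarg, a receptor abundant in early embryos, had levels of 10.83, 11.66, 10.48 and 10.52, with Oct4-EGFP cells highest and a ratio of -1.14 over them. Over EGFP, Rarg had -0.35. The brighter probe of Rara, the most widely expressed retinoic acid receptor, had 0.31 and 0.01, and its other probe -0.26 and -0.65.

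Of the retinoid X receptors, the shared dimer partners of the family, Rxra stood apart. Its brighter probe had levels of 9.17 in EGFP cells, 10.55 in Oct4-EGFP cells, and 8.58 and 8.94 in Nr5a2-EGFP cells. Oct4-EGFP cells were highest, with log2 ratios of -0.60 over EGFP, -1.61 over Oct4-EGFP and 1.02 in the indirect comparison. The other Rxra probe, further along the chromosome, gave 0.27, -0.44 and 0.72, none of them 2-fold, and the mean over both gave 0.87 in the indirect comparison. Rxrb had 0.47 and 0.43, and the brighter probe of Rxrg had -0.07 and 0.27.

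Vdr, the vitamin D receptor gene, had the highest ratio of the family over Oct4-EGFP. Its level was 11.04 in EGFP cells, 10.06 in Oct4-EGFP cells, and 12.44 and 12.43 in Nr5a2-EGFP cells. Both readings of Nr5a2-EGFP cells lay above the others and differed from each other by 0.01. These are the Cy5 readings, and with no dye swap the dye cannot be told apart from the clone. The ratio was 1.41 over EGFP (2.65-fold) and 2.37 over Oct4-EGFP (5.19-fold), from a probe at mm9 chromosome 15, 97685136 to 97685195. The indirect ratio was -0.97, and -1.03 with the software's ratios. The xenobiotic receptors were different. Nr1i2, or PXR, which induces drug-metabolising enzymes, had levels of 7.61, 8.76, 7.71 and 7.81, highest in Oct4-EGFP cells, with 0.10 over EGFP, -0.95 over Oct4-EGFP (-1.11 with the software's ratio) and 1.04 in the indirect comparison. Nr1i3, or CAR, had 0.27 and 0.41.

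Among the fatty acid receptors, Pparg was higher and Ppard lower than in Oct4-EGFP cells, while both were above EGFP cells by less than 2-fold. Pparg, the regulator of fat cell differentiation that also serves in placental trophoblast, had levels of 8.98 in EGFP cells, 7.92 in Oct4-EGFP cells, and 9.38 and 9.22 in Nr5a2-EGFP cells. It was lowest in Oct4-EGFP cells, with ratios of 0.40 against EGFP and 1.30 against Oct4-EGFP and SDs among spots of 0.047 and 0.040. Ppard, a widely expressed member that promotes fatty acid oxidation, had levels of 9.56, 10.93, 10.37 and 10.50. It was lowest in EGFP cells and highest in Oct4-EGFP cells, with 0.81 over EGFP (1.01 with median centring), -0.43 over Oct4-EGFP and 1.25 in the indirect comparison. Ppara, which controls fatty acid breakdown in liver, had 0.31 and 0.02 by its brightest probe.

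The oxysterol receptors LXR-alpha and LXR-beta, encoded by Nr1h3 and Nr1h2, were within 2-fold. Nr1h2 had 0.09 over EGFP and 0.23 over Oct4-EGFP, and the brighter Nr1h3 probe 0.34 and 0.06. The dimmer Nr1h3 probe, not well above background in Oct4-EGFP cells, was at least 2.34-fold higher in Nr5a2-EGFP cells than there, which its brighter probe does not show. Nr1h5, a dim relative of the bile acid receptor, had 0.23 and -0.14.

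Hnf4a, a liver and visceral endoderm receptor, was lower in Nr5a2-EGFP cells than in both others. Its levels were 9.57 in EGFP cells, 9.51 in Oct4-EGFP cells, and 8.46 and 8.47 in Nr5a2-EGFP cells. The Cy3 clones lay close together above both Cy5 readings, and with no dye swap the dye cannot be told apart from the clone. The ratios were -1.11 and -1.04, just past 2-fold, and -0.92 and -0.98 with median centring. Hnf4g, its paralog, went the other way over EGFP with 0.71 and had 0.15 over Oct4-EGFP.

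Nr3c1, the glucocorticoid receptor gene, had the same arrangement. Its levels were 12.00 in EGFP cells, 12.19 in Oct4-EGFP cells, and 10.81 and 10.91 in Nr5a2-EGFP cells. The ratios were -1.19 over EGFP and -1.28 over Oct4-EGFP by this probe, and the other Nr3c1 probe was not well above background in any reading. With median centring the ratio over EGFP was -0.999, and as the mean over both probes the ratios were -0.61 and -0.52. Nr3c2, the mineralocorticoid receptor gene, had -0.12 and -0.02. Esr2, which encodes estrogen receptor beta, was above background in all readings and had 0.56 and 0.13, while all 3 probes of Esr1 and both of Pgr were below background.

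The rest of the family lay within 2-fold in both direct comparisons by the brightest probe. The thyroid hormone receptor genes Thra and Thrb had -0.50 and -0.06 over EGFP, and -0.30 and 0.04 over Oct4-EGFP. Of the COUP transcription factors, orphan receptors of developing organs, Nr2f2 had 0.57 and 0.92 (1.15 with the software's ratio over Oct4-EGFP), Nr2f1 0.13 and 0.11, and Nr2f6 -0.32 and -0.10. Nr2f2 was the nearest to 2-fold of the 3. The testicular receptor genes Nr2c1 and Nr2c2, which can repress through repeats of the hexamer, had -0.98 and -0.09 over EGFP. Over Oct4-EGFP they had -0.53 and -0.43. Nr2c1 was therefore just inside the limit over EGFP, and at -1.03 just outside it with the Cy5 reading of the other array, while its dimmer probe gave -0.22.

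Receptors of the molecular clock and of the immediate early response were also inside the limit. Nr1d1, or REV-ERB-alpha, a heme-binding repressor of clock genes, had levels of 7.93, 8.93, 7.86 and 8.02 and ratios of -0.07 against EGFP and -0.91 against Oct4-EGFP, the latter -1.04 as the software computed it. Its nearest relative Nr1d2 had -0.11 and -0.28 by its brighter probe. Rora and Rorb, which act on the same elements as activators, had 0.62 and 0.40 over EGFP and 0.34 and 0.29 over Oct4-EGFP. Nr4a1, an immediate early gene, had 0.48 and 0.23. Nr4a2 had 0.07 and -0.49 by its brighter probe, while the other gave 0.55 over Oct4-EGFP. That probe was not well above background in EGFP cells, over which it was at least 1.94-fold higher, and the mean over both probes was 0.51 over EGFP.

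**Figure D3:**
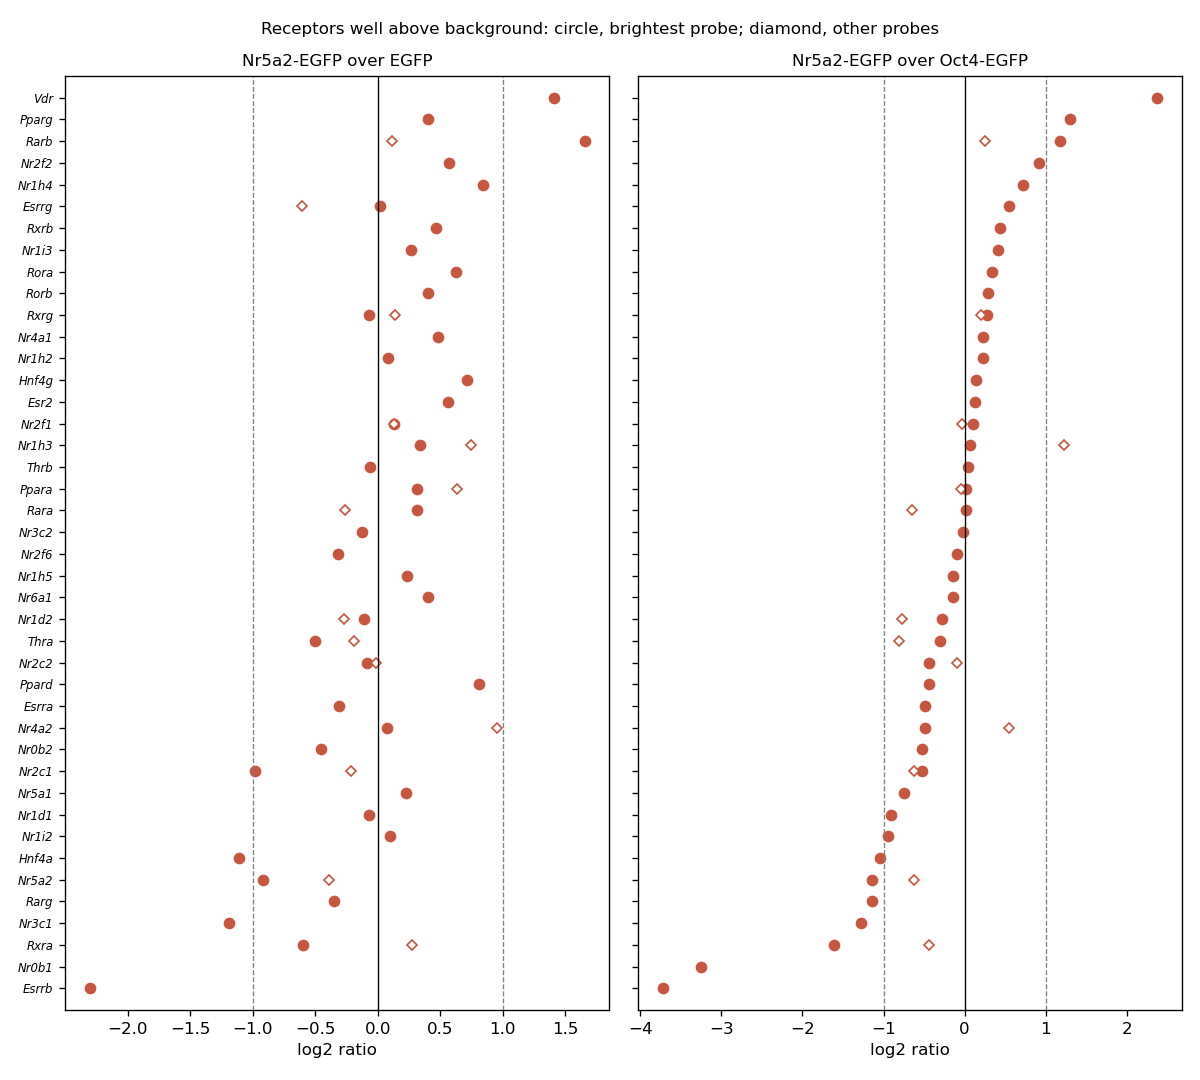
Log2 ratio of Nr5a2-EGFP cells over EGFP cells (left) and over Oct4-EGFP cells (right) for the 42 receptors above background, ordered by the right panel. Circles are the brightest probe and diamonds other probes, and dashed lines mark 2-fold. Esrrb is lowest in both panels, Vdr is highest on the right, and the diamond of Rarb lies far below its circle.

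The only repeated measurement was that of Nr5a2-EGFP cells, read on both arrays, and it gives the spread of a level between hybridisations. The labels do not say whether its RNA was extracted once or separately for each array, so it cannot be told whether that spread includes culture and extraction. Over 41 receptors above background in both readings, the SD of the log2 difference was 0.26, beside 0.27 over 24572 genes. Beside 1.31% of all these genes, Esrrb was the only 1 of the 41 receptors at least 2-fold apart (2.44%). Nr0b1 was above background in only 1 of the readings and is not among them. Its mean levels, 6.76 on the EGFP array and 8.18 on the Oct4 array, were 1.42 apart, with the former below background. Among the 41, Nr5a1 and Rxra had among the wider gaps after Esrrb, at 0.40 and 0.36. The ratios of Hnf4a and Nr3c1 barely depend on which reading is used: with the other array they were -1.11 and -1.09 over EGFP, and -1.04 and -1.38 over Oct4-EGFP. Probes of 1 gene disagreed by at least 1 on the log2 scale for Rarb over EGFP (1 of 14 receptors with several probes), and for Nr1h3, Rxra and Nr4a2 over Oct4-EGFP (3 of 13).

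**Figure D4:**
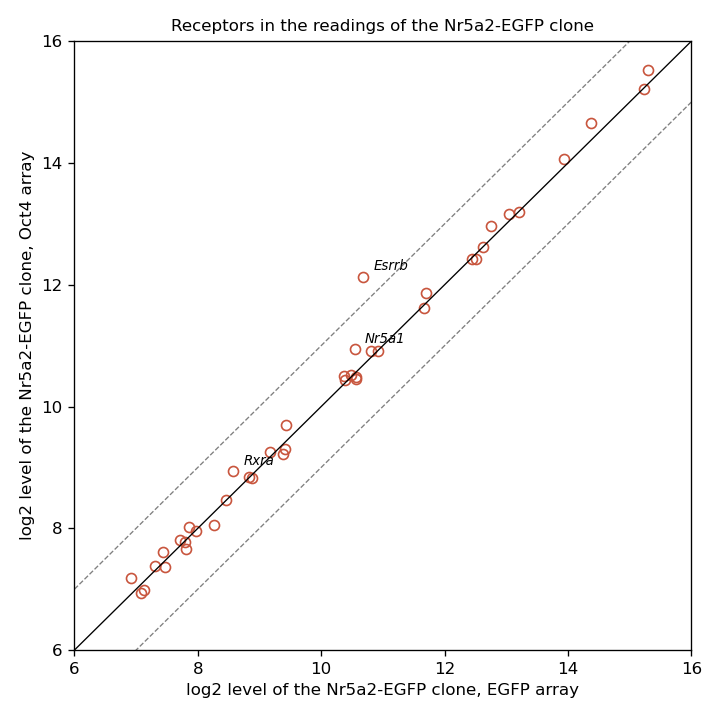
Log2 level of each of 41 receptors in Nr5a2-EGFP cells on the EGFP array (horizontal) and on the Oct4 array (vertical). The solid line marks equality and the dashed lines a 2-fold difference. Esrrb lies outside the dashed lines, 1.45 higher on the Oct4 array.

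Genes that work with the receptors were read from lists that were assembled with earlier results of these data known. Their counts stand beside the shares of all measured genes, which were 3.34% at least 2-fold higher and 5.07% lower over EGFP, and 4.54% higher and 7.11% lower over Oct4-EGFP. In lists of 12 to 20 genes such shares amount to about 1 gene at most, so counts of 0 or 1 are near the background. Of the coactivators, which join ligand-bound receptors to the transcription machinery, 1 of 20 was at least 2-fold higher and 0 lower over EGFP, and 3 of 19 were higher and 1 lower over Oct4-EGFP. The brightest probes of 4 of them, Ncoa3, Crebbp, Med1 and Carm1, were saturated in Nr5a2-EGFP cells, and the medians without these were 0.03 and 0.28. Ncoa6 had 1.05 over EGFP. The Mediator subunit gene Med14 had 2.62 over Oct4-EGFP by its brightest probe, with other probes as low as 0.27, and Ncoa2 had 1.64. Of the corepressors, which silence genes under unliganded receptors, 1 of 14 was higher and 0 lower over EGFP, and 3 were higher and 0 lower over Oct4-EGFP, with medians of 0.20 and 0.32. Nrip1, a ligand-dependent corepressor, had 1.84 over EGFP and -0.83 over Oct4-EGFP, with 0.19 and 0.13 for its other probe. Tbl1x and Tbl1xr1, subunits of the NCoR complex, had 1.85 and 1.78 over Oct4-EGFP, and 0.30 and 0.37 over EGFP. Of 12 receptor chaperone genes, 5 (Hsp90aa1, Hsp90ab1, Hspa8, Ptges3 and Cdc37) were saturated in Nr5a2-EGFP cells, where a higher level could not be read. Of the other 7, 0 were at least 2-fold apart in either direct comparison, beside 8.41% and 11.7% of all genes, and their medians were -0.35 over EGFP and 0.08 over Oct4-EGFP.

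Retinoid handling genes and retinoic acid targets went in both directions. Of 16 measured genes of retinoid metabolism and transport, 2 were higher and 3 lower over EGFP, and of 14 measured over Oct4-EGFP, 0 were higher and 3 lower (3.34% and 5.07% of all genes over EGFP, and 4.54% and 7.11% over Oct4-EGFP). Cyp26b1, at 0.95 over EGFP, had no value on the Oct4 array, where its probe was flagged as an outlier. Without Crabp2, saturated in Nr5a2-EGFP cells, the medians were 0.26 and -0.65. Fabp5, a carrier that delivers retinoic acid, had -1.90 over EGFP, and Aldh1a2, the main retinoic acid-synthesising enzyme of the embryo, -1.32. The retinol carrier gene Rbp4 had -2.04 and Crabp1 -1.25 over Oct4-EGFP. Of 15 measured retinoic acid receptor targets, 5 were higher and 1 lower over EGFP, and 2 were higher and 2 lower over Oct4-EGFP, beside the same shares of all genes. Crabp2 is in this list too, and without it the medians were 0.41 and 0.28. The list also holds 4 receptors described above, Rarb, Rarg, Nr2f1 and Nr2f2, so that 1 of the 6 genes apart over EGFP (Rarb) and 2 of the 4 over Oct4-EGFP (Rarb and Rarg) are counted among the receptors already. Cdx1, a homeobox gene, had 1.23 over EGFP and -1.18 over Oct4-EGFP. Stra8, a gene of meiotic entry, had -0.28 and 2.82. Cyp26a1, the retinoic acid-degrading enzyme, was not well above background in either Cy3 clone and was at least 2.19-fold higher than in EGFP and 1.85-fold higher than in Oct4-EGFP.

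Targets of other receptors and clock genes were counted in the same way, beside 8.41% of all genes at least 2-fold apart over EGFP and 11.7% over Oct4-EGFP. Medians here leave out genes saturated in Nr5a2-EGFP cells, which were Fabp3, Scd2, Sgk1 and Ddit4. Of 14 measured PPAR targets 0 were 2-fold apart over EGFP, and of 12 over Oct4-EGFP 1 was higher and 1 lower, with medians of -0.18 and -0.70. Pdk4, a kinase that limits glucose oxidation, had -1.64 over Oct4-EGFP, and the saturated Fabp3 was at least 2.92-fold higher. Of 12 LXR targets, Nr1h3 among them, 0 were higher and 2 lower over EGFP and 1 was higher and 1 lower over Oct4-EGFP (medians -0.10 and -0.34). The lowest was the sterol transporter gene Abcg1, at -2.18 and -2.70. Of 14 glucocorticoid receptor targets, 1 was higher and 1 lower over EGFP, and 2 were higher and 0 lower over Oct4-EGFP (medians 0.04 and 0.39). Dusp1, a phosphatase induced by glucocorticoids, had 1.10 over EGFP, and the metallothionein gene Mt1 -1.13. Of 15 clock genes, 2 were higher and 0 lower over EGFP, and 2 were higher and 3 lower over Oct4-EGFP (medians 0.16 and 0.24). The repressor genes Per2 and Cry2 had 1.36 and 1.48 over EGFP and 2.41 and 1.08 over Oct4-EGFP, although the other Cry2 probe gave 0.45 and -0.04. Arntl, the activator that REV-ERB and ROR receptors control, had 0.04 and -2.05.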

How the data were processed

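Each spot's intensity was deposited as the scanner software gave it. That was Agilent Feature Extraction, in version 10.7.3.1 by the headers of the files and 9.3.2.1 by the submitters' processing notes. Array design 026655 places probes on mm9, per the file headers. The log10 ratio (Cy5 over Cy3) and the flags for background, saturation and outliers were computed by that software, per the file headers. The value table that the authors deposited gives log2 ratios, which followed the software's at r = 0.997 (EGFP array) and 0.997 (Oct4 array), with medians of 0.03 and 0.05. Its direction follows from this, while how it was centred is not given in these sources. Mean signals were background-corrected (normexp, offset 50) and normalized by loess within arrays and Aquantile between them with limma 3.58.1 under R 4.3.3. Controls and spots flagged as outliers had no weight. Spots were averaged per probe, and the probe of highest mean intensity stands for a gene that has several. A gene was measured if well above background in at least 1 channel. A probe with all its spots on an array flagged as outliers had no value there and was not counted as measured. Where 1 channel was below background or saturated, a fold is a lower bound. The procedure was tested on simulated data. The simulation was read on probes well above background in both channels and left out each array's dye curve, so it is cleaner than the real arrays. Of changes simulated at 2-fold, 54% passed the 2-fold rule on the EGFP array and 50% on the Oct4 array. Such a change lies on the limit itself, so noise alone decides whether it passes. Among 29946 and 29840 probes, 9 and 6 that were simulated as unchanged passed. At 3-fold 98% and 94% passed, and at 1.5-fold 6% and 4%. A receptor within 2-fold is thus not shown to be unchanged. All 47 receptors were to be named, and of other lists the 2 genes with the largest ratios per comparison. Not all of these list genes are named above. Among those left out are Abcg5 over EGFP (-1.06), and Cdx2 (4.48), Errfi1 (1.25), Scd1 (1.12) and Cdkn1c (1.06) over Oct4-EGFP. Members and lists were chosen with earlier results of these data known, and Cyp26a1 was named after its values were seen. In which exon or UTR a probe lies was not analysed here. Depth does not apply to arrays, whose number limits the precision.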

Additional observations from a re-analysis of the deposited data

How the results depend on the processing

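No receptor with a ratio of at least 2-fold changed direction under any alternative. With the software's own ratios and with the authors' deposited value table, 4 receptors in place of 2 were higher over EGFP, 6 in place of 3 were higher over Oct4-EGFP, and 3 in place of 0 were lower in the indirect comparison. The same counts over all genes rose too. With the software's ratios they went from 869 to 1784, from 1185 to 1958 and from 1542 to 2467. With the mean over all probes, 1 receptor was higher over EGFP, as were 717 of all genes in place of 869. Median centring left 1 receptor lower over EGFP in place of 3, and 895 of all genes in place of 1317. It turned the share of higher calls among all genes at least 2-fold apart over EGFP from 39.8% to 63.5% and the median of all measured genes from 0.03 to 0.16. From the Cy3 levels, 1 receptor was lower in the indirect comparison, as were 2053 of all genes in place of 1542. Of 744 single receptor values under the alternatives, 687 moved by less than 1 SD of the readings of the Nr5a2-EGFP clone, and 57 moved by more. No paired analysis was possible because each pair of clones was on 1 array, and for the same reason no array could be left out.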
